A study of Homo sapiens with 12 samples.

Results

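The nuclear genes for the respiratory chain and the ATP synthase were followed in HL-60, a promyelocytic leukemia line of human origin, over 4 days of treatment with all-trans-retinoic acid (ATRA). Members were chosen by symbol: NDUFA, NDUFB, NDUFC, NDUFS and NDUFV genes for complex I, SDHA to SDHD for complex II, UQCR genes for complex III, COX4 to COX8 genes for complex IV and ATP5 genes for complex V, with the NDUFAF assembly factors left out. This gave 94 of the 26364 genes counted, of which 43 belonged to complex I, 4 to complex II, 10 to complex III, 17 to complex IV and 20 to complex V. Of the 94, 82 were genes for subunits. The other 12 were 3 antisense RNAs, 2 readthrough transcripts, 4 pseudogenes or gene copies, and 3 proteins that associate with a complex without being part of it. NDUFA4 was kept under complex I, where its symbol puts it, although current nomenclature places the protein in complex IV.

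Complex I oxidizes NADH and complex II oxidizes succinate, and both pass electrons through coenzyme Q to complex III, cytochrome c and complex IV. Complexes I, III and IV pump protons out of the mitochondrial matrix, and complex V uses the gradient to make ATP. Most subunits are encoded in the nucleus, while a few central subunits of complexes I, III, IV and V are encoded by mitochondrial DNA. Mature neutrophils are known for few mitochondria and a reliance on glycolysis.

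Bulk RNA-seq was available for 4 groups of 3 libraries each. All were HL-60 cells in Iscove's medium with fetal bovine serum: untreated cells (RA0h), and cells given 1 µM ATRA, which induces neutrophil differentiation in this line, for 4 h (RA4h), 2 days (RA2d) or 4 days (RA4d). No untreated library from a later time was used here, so time in culture and ATRA cannot be told apart. Nothing in the labels tells if the replicates of a group were grown separately, and every p-value is therefore about the spread of these libraries, which may be technical. In bulk RNA, fewer cells of a type and less RNA per cell cannot be told apart.

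Libraries held between 7866757 and 13658177 reads in genes. RA4h replicate 1 stood apart, with reads in 22265 genes against at most 15798 in any other library and with the highest share of reads outside genes (28.15%). RA0h replicate 2 and RA4d replicate 1 were the lowest of their groups for several members, among them SDHC, SDHD, COX5A, ATP5B and ATP5G3. They were the highest of their groups for others, among them ATP5D, NDUFV1, UQCRC1 and ATP5G2. The median log2 deviation of the tested members from their group mean was -0.02 in RA0h replicate 2 and 0.08 in RA4d replicate 1. The main counts and calls that turn on these libraries are also given without them. CYP26A1, CD38, DHRS3 and TGM2, which ATRA is known to induce, were higher in RA4d, RA2d and RA4h cells than in RA0h cells (4 of 4 in each comparison). The 8 listed myeloid markers of HL-60 cells summed to 10379.2 to 11174.1 CPM (counts scaled to the library's total) in RA4d libraries and 31654.8 to 45131.7 CPM in RA0h libraries. Most of this sum was MPO. Of the 8, 5 fell at RA4d, MPO and ELANE among them, while CD33 (log2 fold change 0.56) and PTPRC (2.34) rose and SPI1 (0.33) did not pass the test. A list of 11 markers of lymphoid, erythroid, platelet and other lineages summed to 24.9 to 34.1 CPM in RA4d libraries and 17.9 to 28.7 CPM in RA0h libraries. Of the 5 that could be tested, CD3E and COL1A1 rose and CD79A fell at RA4d. HBA1 was at 0 in all 12 libraries, and HBB, PPBP and PF4 were each at 0 in 11 of 12. The part of these markers in the results on the respiratory chain was not tested.

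Transcripts of the respiratory chain were lower after 2 days of ATRA and lower still, in the group means, after 4 days, while after 4 h no member was called. The summed level of all 94 genes was 15175.2, 13470.8 and 12147.9 CPM in the RA0h libraries. It was 11566, 12839.5 and 15814.5 CPM in the RA4h libraries, which overlapped the RA0h range. It was 7901.1, 9337.1 and 8911.5 CPM at RA2d and 7565, 6407.9 and 6754.2 CPM at RA4d. Every RA2d and RA4d library lay below every RA0h and RA4h library. The RA4d mean was 50.8% of the RA0h mean, the RA2d mean 64.1% and the RA4h mean 98.6%. As a share of reads in genes before any scaling, the set took 0.71, 0.69 and 0.71% in RA4d libraries, against 1.52, 1.23 and 1.22% in RA0h libraries.

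**Figure D1:**
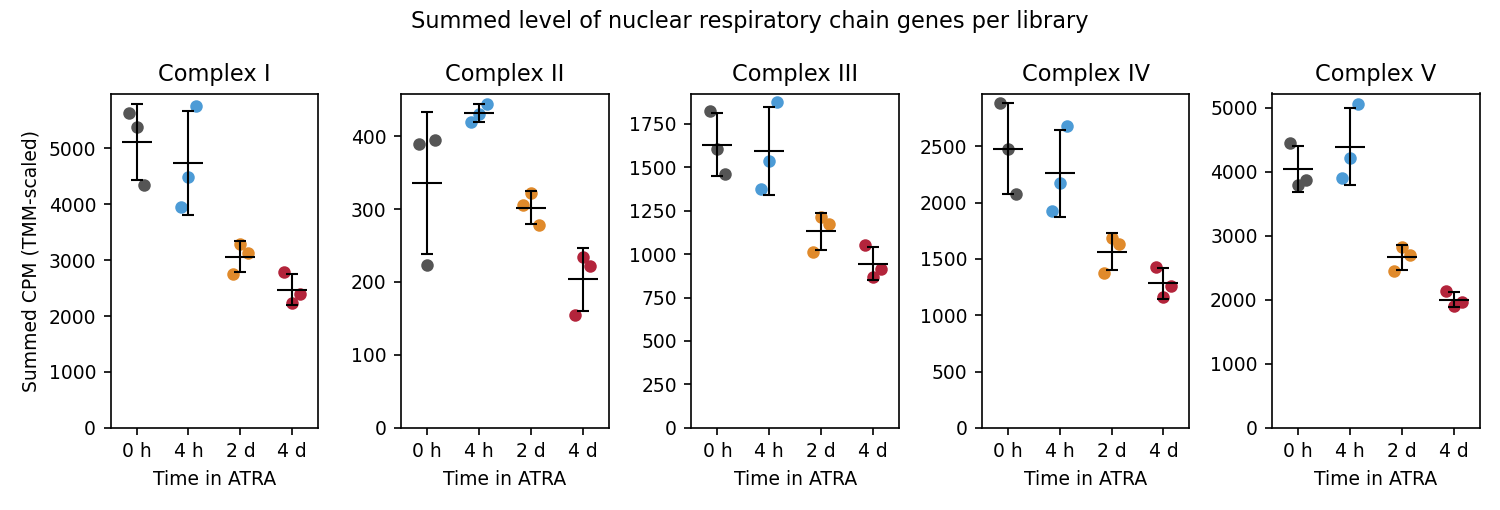
Summed level (CPM) of the genes of each complex in the 12 libraries, in time order; points are libraries, long bars group means and whiskers the SD (n = 3). For complexes I, III, IV and V the RA2d and RA4d libraries lie below all RA0h and RA4h libraries, while for complex II RA0h replicate 2 (223.2 CPM) lies within the RA4d range.

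Gene by gene, 83 of the 94 had enough reads to be tested, and calls were made with edgeR's quasi-likelihood test at an adjusted p (Benjamini-Hochberg, over 12671 genes) below 0.05. After 4 days, 65 of the 83 were lower than in RA0h cells and 0 were higher, where 29.7% of all genes tested were called lower and 28.1% higher. Of these 65, 39 were at least 2-fold lower, against 17.6% of all genes. The median log2 fold change of the 83 was -0.93, with quartiles of -1.25 and -0.58, while that of all genes tested was 0. After 2 days, 49 of the 83 were lower than in RA0h cells and 0 were higher, where 18.7% of all genes were called lower and 16.9% higher. Of these 49, 13 were at least 2-fold lower, against 8.52% of all genes. The median was -0.61, against -0.02 over all genes. All 49 were also called at RA4d, 16 further genes were called at RA4d alone, and 18 were called at neither time. Both comparisons use the same RA0h libraries. Without RA0h replicate 2, RA4h replicate 1 and RA4d replicate 1, 71 members were lower and 1 was higher (NDUFV2-AS1) at RA4d, and 61 were lower at RA2d. These libraries were picked by their values in these same data. Leaving out a low RA0h library enlarges the fall of the genes that are low in it. Results without these libraries, here and for single genes below, are therefore no separate support. For fits with libraries left out, the share of all genes called is not given here. A higher count in them need not be particular to the members. Without RA2d replicate 1 alone the RA2d count was 24, and without RA0h replicate 1 alone it was 31. For 62 of the 83 every RA4d library lay below every RA0h library, where this held for 29.9% of all genes; at RA2d it held for 52, against 25% of all genes. Set against RA4h cells instead, RA2d cells had 46 of the 83 lower and 0 higher, with 18% of all genes called lower and 16.5% higher. At least 2-fold lower were 8 of these 46, against 7.39% of all genes. The 46 became 27 without RA2d replicate 1.

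The set differed from the average gene in length. The median transcript of the genes tested was 878 nt long with 50% GC, against 2708 nt and 49.9% over all genes tested. With an offset for GC content and length in each library, 63 members were lower and 2 were higher at RA4d, COX7A2L (log2 fold change 0.28) and the antisense RNA NDUFV2-AS1 (0.94). The median of the members was then -0.73, and that of all genes -0.07. The share of all genes called with the offset is not given here, so the counts of members cannot be set against it.

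At RA4d the lower genes came from every complex. Complex I had 32 of 42 tested genes lower (median log2 fold change -0.95), complex III 8 of 9 (-0.91), complex IV 10 of 12 (-1.15) and complex V 13 of 16 (-1.05). Complex II had 2 of 4 (-0.64). At RA2d complex II had 0 of 4 lower (-0.14), beside 28 of 42 in complex I (-0.69), 7 of 9 in complex III (-0.61), 5 of 12 in complex IV (-0.66) and 9 of 16 in complex V (-0.57). With RA0h replicate 2 alone left out, 2 of the 4 genes of complex II were lower at RA2d (median -0.36) and 3 of 4 at RA4d (-0.87). Whether one complex fell more than another was not tested. The 4 members of complex II are few, and the ranges of the complexes overlapped.

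**Figure D2:**
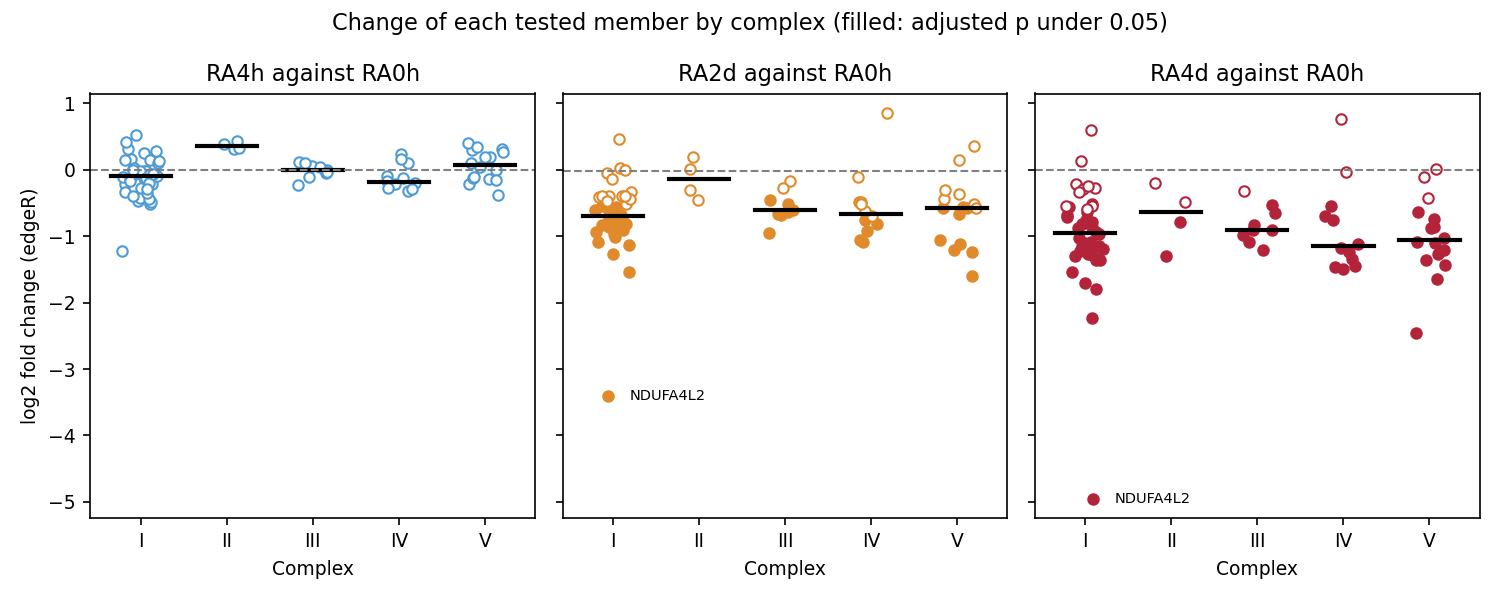
Log2 fold change of each tested gene by complex, for RA4h, RA2d and RA4d against RA0h; filled points passed the test at an adjusted p under 0.05 and bars are medians. Most points lie below 0 in every complex at RA4d, and none above 0 is filled. NDUFA4L2 (-4.95) is the lowest, on few reads, and passed the filter only through its RA0h and RA4h libraries.

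NDUFB9, NDUFS5, NDUFS6 and NDUFAB1 fell most among the well-expressed genes of complex I. NDUFB9 codes for an accessory subunit of the membrane arm, and had 106, 69.1 and 72.8 CPM in RA4d cells and 114.5, 138 and 147 CPM in RA2d cells, against 430.0, 452 and 279.7 CPM in RA0h cells. Its log2 fold change was -2.23 ± 0.24 (SE) at RA4d, a 4.69-fold lower level (adjusted p 5.06e-06), and -1.54 at RA2d (adjusted p 0.000287). NDUFS5, another accessory subunit, had 89.7, 78.3 and 83.8 CPM at RA4d and 347, 278 and 248 CPM at RA0h. NDUFS6, a zinc-binding subunit at the junction of the matrix arm, had 61, 55.1 and 57.3 CPM at RA4d and 221, 183 and 161 CPM at RA0h. The RA4d libraries of both genes lay close together and far below the RA0h libraries, with log2 fold changes of -1.79 ± 0.18 for NDUFS5 (adjusted p 2.84e-06) and -1.70 ± 0.19 for NDUFS6 (adjusted p 4.83e-06). NDUFAB1 is the mitochondrial acyl carrier protein, which serves fatty acid synthesis as well as complex I. It had 40.9, 30.5 and 28.5 CPM at RA4d and 35.4, 42.8 and 41.9 CPM at RA2d, against 108, 97.2 and 85.5 CPM at RA0h. Its log2 fold change was -1.54 ± 0.18 at RA4d (adjusted p 7.04e-06) and -1.27 at RA2d (adjusted p 0.000105), so most of its fall was present by day 2. In each of these 4 genes, every RA2d and RA4d library lay below every RA0h and RA4h library.

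The 7 core subunits of complex I encoded in the nucleus, which carry its flavin and iron-sulfur clusters or bind the quinone, were divided: 4 of 7 fell at RA4d, with a median log2 fold change of -0.71. NDUFS3, part of the quinone-binding module, had 53.2, 38 and 38.4 CPM at RA4d and 126, 109 and 80.1 CPM at RA0h (log2 fold change -1.28 ± 0.21, adjusted p 0.000191). NDUFV2, an iron-sulfur subunit of the NADH-binding module, fell by 1.09 on the log2 scale (adjusted p 0.000332). NDUFV1, which binds NADH and the flavin, had 348, 194 and 217 CPM at RA4d and 401, 678 and 409.9 CPM at RA0h (-0.97 ± 0.28, adjusted p 0.0098). The NDUFV1 groups did not overlap, but RA4d replicate 1 was near the lowest RA0h library. NDUFS7, which holds the last iron-sulfur cluster before the quinone, passed the test at RA4d (-0.71, adjusted p 0.0202) but not without RA4d replicate 2 or RA4d replicate 3. NDUFS1 and NDUFS8 did not pass, with log2 fold changes of -0.55 and -0.59 and adjusted p-values of 0.0682 and 0.0573. For NDUFS1, the subunit with the most iron-sulfur clusters, RA0h replicate 2 lay at 29.6 CPM, within the RA4d values of 22.4, 40 and 33.5 CPM, while the other RA0h libraries were at 56.4 and 54.8 CPM. Without RA0h replicate 2, RA4h replicate 1 and RA4d replicate 1, NDUFS1 passed the test at RA4d (-0.60, adjusted p 0.00259).

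NDUFA4L2, a paralog of NDUFA4 known as a hypoxia-induced gene, was low throughout and nearly absent after 4 days. It had 0.104, 0 and 0.261 CPM in RA4d cells and 0.342, 0.454 and 0.369 CPM in RA2d cells, against 2.85, 5.82 and 4.19 CPM in RA0h cells. These RA4d values stand for 1, 0 and 3 reads and the RA0h values for 31, 64 and 43 reads, so the log2 fold change of -4.95 ± 0.57 (adjusted p 8.44e-06) rests on few reads. At RA2d the log2 fold change was -3.41 ± 0.48 (adjusted p 0.000126). The gene passed the filter on low counts through its RA0h and RA4h libraries alone. A fall was thus favored in advance, and these p-values are no separate support for it. NDUFA4 itself had 120.3, 119.9 and 120.0 CPM at RA4d and 172, 114 and 131 CPM at RA0h, and did not pass the test (-0.21).

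In complex II, the catalytic SDHA and its iron-sulfur partner SDHB fell at RA4d, and SDHC and SDHD, which anchor the complex in the membrane, did not pass the test. SDHA, the flavoprotein that oxidizes succinate, had 119, 91 and 135 CPM in RA0h cells, 133, 139.6 and 159 CPM in RA4h cells, 97.8, 99.5 and 82.7 CPM in RA2d cells and 40.5, 49 and 50.7 CPM in RA4d cells. The RA2d values overlapped the RA0h values, while all RA4d values lay below both. Its log2 fold change was -1.30 ± 0.17 at RA4d against RA0h (adjusted p 3e-05), -0.30 at RA2d against RA0h (adjusted p 0.186) and -1.0 ± 0.17 at RA4d against RA2d (adjusted p 0.00114). SDHA has near-identical pseudogenes that can share its reads, so its level carries that uncertainty. SDHB had 40.6, 50.2 and 49.2 CPM at RA4d and 92.4, 59 and 89.8 CPM at RA0h, a log2 fold change of -0.78 ± 0.18 (adjusted p 0.00179). SDHC had 33.9, 69.1 and 62.5 CPM at RA4d and 81.5, 29.9 and 76.8 CPM at RA0h, groups that overlapped (-0.19 ± 0.32, adjusted p 0.638). SDHD had 39.5, 66.1 and 59.6 CPM at RA4d and 96.2, 43.2 and 92.6 CPM at RA0h, which also overlapped (-0.49 ± 0.27, adjusted p 0.132). In both, RA0h replicate 2 was about as low as the lowest RA4d library. Without RA0h replicate 2, RA4h replicate 1 and RA4d replicate 1, SDHD passed the test at RA4d (-0.59), and SDHA (-0.44, adjusted p 0.0118) and SDHB (-0.65, adjusted p 0.000399) passed it at RA2d.

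In complex III the small subunits UQCRQ and UQCRH and the core subunit UQCRC1 fell most at RA4d. UQCRQ, which packs beside cytochrome b, had 18.5, 13.5 and 14.6 CPM in RA4d cells and 37.3, 37 and 33.6 CPM in RA0h cells (log2 fold change -1.21 ± 0.23, adjusted p 0.000446). UQCRH, the acidic hinge protein at the cytochrome c side, had 193, 177 and 193 CPM at RA4d and 507, 342 and 353 CPM at RA0h (-1.09 ± 0.19, adjusted p 0.000262). Neither gene's groups overlapped. The copy UQCRHL, nearly identical to UQCRH, was lower as well (-0.91, adjusted p 0.00142), and reads of the pair may be shared between them. The core protein UQCRC1 had 236, 154 and 154 CPM at RA4d and 286, 460.5 and 324 CPM at RA0h (-0.98 ± 0.24, adjusted p 0.00296). Its partner UQCRC2 was at 122, 109 and 113 CPM at RA4d against 182, 143 and 172 CPM at RA0h (-0.53 ± 0.14, adjusted p 0.00539), again without overlap. UQCRFS1, the Rieske iron-sulfur protein that passes electrons to cytochrome c1, did not pass the test at RA2d (-0.27, adjusted p 0.237) and did at RA4d (-0.83 ± 0.17, adjusted p 0.00105). Its RA4d libraries were at 54.6, 66.7 and 67.8 CPM, its RA2d libraries at 85.8, 94.8 and 98 CPM and its RA0h libraries at 130.4, 93.4 and 112 CPM. UQCRB, a quinone-site subunit, was the one tested subunit gene of complex III that did not pass at RA4d (-0.32), with 211, 174 and 178 CPM in RA4d cells and 309, 202 and 190.1 CPM in RA0h cells.

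In complex IV as grouped here by symbol, the tested nuclear subunits that surround the mitochondrially encoded core fell at RA4d, except the muscle isoform COX7A1. NDUFA4, kept under complex I above, did not pass the test either. The calls of COX6B1 and COX8A did not hold without RA0h replicate 2, RA4d replicate 2 or RA4d replicate 3. That of COX6B1 was also lost with the offset for GC content and length (adjusted p 0.0769). COX5A, which takes part in regulation of the enzyme, had 39.3, 60.3 and 64.3 CPM in RA4d cells and 206, 90.4 and 163 CPM in RA0h cells (log2 fold change -1.49 ± 0.27, adjusted p 0.000372). RA0h replicate 2 was the lowest RA0h library here too. COX5A did not pass at RA2d (-0.70, adjusted p 0.0536) and did so without RA0h replicate 2, RA4h replicate 1 and RA4d replicate 1 (-0.98). COX7B, a small membrane subunit, had 51.6, 47.8 and 46.8 CPM at RA4d and 193, 106 and 105 CPM at RA0h (-1.47 ± 0.23, adjusted p 0.000133). COX6C, another membrane subunit, had 70.1, 53.4 and 63.1 CPM at RA4d and 212, 166 and 132 CPM at RA0h (-1.45 ± 0.21, adjusted p 5.18e-05). The zinc-binding subunit COX5B had 114, 90.3 and 89.7 CPM at RA4d and 288, 221 and 182 CPM at RA0h (-1.23 ± 0.20, adjusted p 0.000165). COX7B, COX6C and COX5B were also called at RA2d, with log2 fold changes of -1.08, -1.06 and -0.92. COX4I1, the subunit that assembles first with the mitochondrially encoded COX1, had the smallest log2 fold change among the called genes of complex IV. It was at 254, 199 and 211 CPM in RA4d cells and 347, 355 and 266 CPM in RA0h cells (-0.54 ± 0.19, adjusted p 0.0238), and this call did not hold without RA0h replicate 1, RA4d replicate 2 or RA4d replicate 3, with the offset for GC content and length (-0.27, adjusted p 0.0516) or with the replicate number as a block (-0.54, adjusted p 0.0514). The tissue-specific isoforms were near 0: COX6A2 had 0 reads, COX7B2 and COX8C 1 read each, COX4I2 2 reads and COX6B2 18 reads over all 12 libraries, where 3 reads stand for 0.0225 CPM. COX7A1 had 0.416, 1.19 and 1.39 CPM at RA4d and 1.01, 0.546 and 0.195 CPM at RA0h, which overlapped (0.77 ± 0.64).

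In complex V, the catalytic head, the stalk and the proton-conducting ring all had lower members at RA4d. ATP5A1 and ATP5B are the alpha and beta subunits of the catalytic head. ATP5A1 had 479, 461 and 451 CPM in RA4d cells and 878, 742 and 924 CPM in RA0h cells, a log2 fold change of -0.87 ± 0.15 (adjusted p 0.000273). ATP5B had 249.7, 339 and 330.4 CPM at RA4d and 767, 407 and 777 CPM at RA0h, where replicate 2 was again the low library (-1.09 ± 0.23, adjusted p 0.0013). Neither passed at RA2d, at -0.37 (adjusted p 0.0726) for ATP5A1 and -0.52 (adjusted p 0.0931) for ATP5B. Without RA0h replicate 2, RA4h replicate 1 and RA4d replicate 1, ATP5B passed at RA2d (-0.77). ATP5C1, the gamma subunit that turns within the head, had 33.1, 45.7 and 42.6 CPM at RA4d and 84.9, 53 and 82.3 CPM at RA0h (-0.86 ± 0.18, adjusted p 0.00131). ATP5J, a peripheral stalk subunit, had 68.4, 57.7 and 62.8 CPM at RA4d and 263, 166 and 161 CPM at RA0h (-1.64 ± 0.21, adjusted p 2.24e-05). ATP5D, the delta subunit of the central stalk, had 117, 69.5 and 67.9 CPM at RA4d and 182, 326 and 184 CPM at RA0h (-1.44 ± 0.30, adjusted p 0.00107). ATP5I, a membrane subunit tied to dimer formation, had 91.8, 47.2 and 51.2 CPM at RA4d and 214, 164 and 108 CPM at RA0h (-1.35 ± 0.32, adjusted p 0.00255). For ATP5D and ATP5I, RA4d replicate 1 was the highest of its group and still below every RA0h library.

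The 3 genes ATP5G1, ATP5G2 and ATP5G3 code for precursors that differ in their targeting peptide and give the same mature c subunit of the proton-conducting ring. ATP5G1 had 248, 347 and 232 CPM in RA0h cells, 234, 247 and 344 CPM in RA4h cells, 87.3, 93.5 and 91.7 CPM in RA2d cells and 59.5, 44.8 and 46.2 CPM in RA4d cells. Its RA2d and RA4d libraries lay far below the others, with a log2 fold change of -2.46 ± 0.21 at RA4d, a 5.49-fold lower level (adjusted p 5.78e-07), and -1.60 at RA2d (adjusted p 6.36e-05). ATP5G2 had 346, 190.4 and 221 CPM at RA4d and 391, 552 and 319.9 CPM at RA0h. These groups overlapped, and its log2 fold change of -0.74 ± 0.26 (adjusted p 0.0245) was no longer called without RA0h replicate 2, RA4d replicate 2 or RA4d replicate 3. ATP5G3 had 83.2, 117 and 118 CPM at RA4d and 309.9, 174 and 253 CPM at RA0h (-1.21 ± 0.22, adjusted p 0.00032). Without RA0h replicate 2, RA4h replicate 1 and RA4d replicate 1 the log2 fold change of ATP5G3 was -1.26 at RA4d, and at RA2d it was -0.64 and called, where it was -0.44 and not called with all libraries. Of the reads of the 3 genes, taken as CPM and not corrected for transcript length, ATP5G1 held 12.2, 12.7 and 12% at RA4d and 17.1, 16.5 and 15.4% at RA2d, against 26.2, 32.3 and 28.8% at RA0h. ATP5G2 held 70.8, 54.0 and 57.4% at RA4d, against 41.2, 51.5 and 39.7% at RA0h, and ATP5G3 held 17.0, 33.3 and 30.6% at RA4d, against 32.7, 16.2 and 31.4% at RA0h. The ATP5G1 and ATP5G2 shares did not overlap between RA4d and RA0h, and the ATP5G3 shares did. No test was made on these shares, and pseudogenes close to these genes can take part of their reads.

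**Figure D3:**
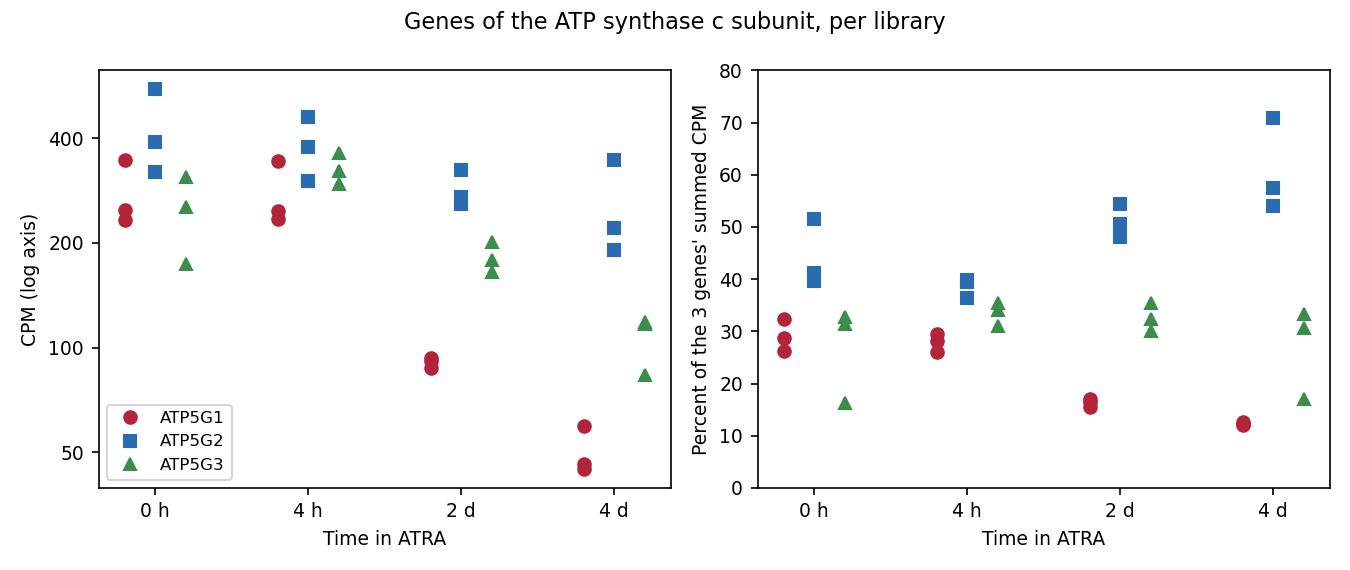
Level in CPM (left, log axis) and share of the summed CPM in percent (right) of ATP5G1, ATP5G2 and ATP5G3 in the 12 libraries, in time order. The ATP5G1 share falls below 18% in every RA2d and RA4d library, where every RA0h and RA4h library is above 26%.

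The bases upstream of ATP5G1 and ATP5G2 are shown because these genes give the same mature protein and differed in their values. They are the 250 bases before the start of each gene from RefSeq (GRCh38.p14), ATP5G1 (ATP5MC1) at chr17:48892537-48892786 on the plus strand and ATP5G2 (ATP5MC2) at chr12:53676084-53676333 on the minus strand. Each is printed 5′ to 3′ along its gene, with CCAAT boxes in capitals. CCAAT, searched on both strands, was added after the ATP5G1 sequence had been read, so its count there is a description.
ATP5G1: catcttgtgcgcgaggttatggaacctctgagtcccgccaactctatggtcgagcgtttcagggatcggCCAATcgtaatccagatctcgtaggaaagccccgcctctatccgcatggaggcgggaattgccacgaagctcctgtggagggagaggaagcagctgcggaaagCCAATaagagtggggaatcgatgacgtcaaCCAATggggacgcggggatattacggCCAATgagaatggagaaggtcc
ATP5G2: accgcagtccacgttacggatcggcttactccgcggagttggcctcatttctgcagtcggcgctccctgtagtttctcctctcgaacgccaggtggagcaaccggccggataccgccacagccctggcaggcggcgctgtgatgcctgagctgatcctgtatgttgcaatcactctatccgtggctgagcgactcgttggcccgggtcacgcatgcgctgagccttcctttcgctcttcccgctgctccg
CCAAT starts 181, 78, 48 and 22 bases before the start of ATP5G1, and is not in this window of ATP5G2. No sequence was at hand for ATP5G3. Of the 68 subunit genes with a sequence in the table, 30.9% held CCAAT in these 250 bases, against 32% of all 35116 genes and 32.7% of the 22198 protein-coding genes. At least 3 copies stood before 4.41% of the subunit genes, against 2.93% of all genes and 3.34% of protein-coding genes. The median log2 fold change at RA4d was -0.87 for the 17 tested genes with CCAAT and -1.06 for the 46 without it. The 2 tested genes with at least 3 copies were ATP5G1 (-2.46) and NDUFS8 (-0.59), and NDUFS8 did not pass the test. Whether CCAAT goes with the fall was not tested.

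The same 250 bases were searched for motifs of factors known to act on genes of the respiratory chain, on both strands: GCGC and TGCGC with any 1 base between them for NRF1, CCGGAAG for ETS factors such as GABP, and AAGATGGC for YY1. These motifs were chosen with results of these data known. The NRF1 motif stood before 14 of the 68 subunit genes (20.6%), against 5.07% of all genes and 6.56% of protein-coding genes. The ETS motif stood before 16 of 68 (23.5%), against 8.52% of all and 10.7% of protein-coding genes. The YY1 motif stood before 1 of 68 (1.47%), against 1.36% of all and 1.38% of protein-coding genes. Any of these stood before 28 of 68 (41.2%), against 13.9% of all and 17.2% of protein-coding genes. The median log2 fold change at RA4d was -0.93 for the 27 tested genes with a match and -1.06 for the 36 without one. Only 68 of the 82 subunit genes had a sequence. Those without, NDUFB9, NDUFS5, ATP5B and ATP5D among them, are in neither median. One promoter per complex is printed, that of the gene with the lowest log2 fold change at RA4d among those with a match, so that the motif can be seen; its presence in them follows from that choice, made after genes picked by log2 fold change alone were seen mostly to hold no match. Capitals mark matches to the NRF1, ETS and YY1 motifs and CCAAT. The sequences are RefSeq's (GRCh38.p14): NDUFA12 at chr12:95003698-95003947 (minus strand), SDHA at chr5:218070-218319 (plus strand), UQCRQ at chr5:132866392-132866641 (plus strand), COX6A1 at chr12:120437863-120438112 (plus strand) and ATP5J (ATP5PF) at chr21:25735055-25735304 (minus strand).
NDUFA12: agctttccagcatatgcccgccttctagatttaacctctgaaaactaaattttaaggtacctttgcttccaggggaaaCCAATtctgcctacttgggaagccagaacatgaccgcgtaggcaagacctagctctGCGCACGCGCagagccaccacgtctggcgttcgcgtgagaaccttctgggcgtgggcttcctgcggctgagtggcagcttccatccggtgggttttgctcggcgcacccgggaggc
SDHA: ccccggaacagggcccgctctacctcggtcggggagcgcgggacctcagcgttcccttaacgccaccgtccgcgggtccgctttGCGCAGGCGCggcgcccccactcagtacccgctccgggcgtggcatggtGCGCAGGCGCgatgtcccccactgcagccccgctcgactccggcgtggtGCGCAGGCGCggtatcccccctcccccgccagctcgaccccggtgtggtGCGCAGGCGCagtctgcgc
UQCRQ: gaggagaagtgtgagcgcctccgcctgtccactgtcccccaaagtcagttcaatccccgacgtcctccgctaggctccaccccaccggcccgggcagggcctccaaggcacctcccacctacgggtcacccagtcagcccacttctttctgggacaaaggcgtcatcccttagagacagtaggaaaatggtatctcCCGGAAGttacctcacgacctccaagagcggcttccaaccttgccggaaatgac
COX6A1: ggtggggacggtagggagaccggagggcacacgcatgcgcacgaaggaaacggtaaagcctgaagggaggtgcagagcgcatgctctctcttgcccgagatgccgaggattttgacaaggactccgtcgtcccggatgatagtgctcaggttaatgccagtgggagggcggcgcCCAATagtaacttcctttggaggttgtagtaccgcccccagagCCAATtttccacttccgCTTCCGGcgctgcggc
ATP5J: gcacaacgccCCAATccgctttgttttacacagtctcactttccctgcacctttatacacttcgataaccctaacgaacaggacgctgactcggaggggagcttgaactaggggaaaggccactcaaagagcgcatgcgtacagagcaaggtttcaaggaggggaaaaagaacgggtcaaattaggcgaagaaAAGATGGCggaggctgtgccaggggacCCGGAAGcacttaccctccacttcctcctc
SDHA held 4 NRF1 matches, which start 166, 117, 68 and 19 bases before its start, and NDUFA12 held 1, at 116 bases. The ETS match started 54 bases before UQCRQ, 16 before COX6A1 and 30 before ATP5J, and ATP5J also held the YY1 match at 57 bases. NDUFA12 and COX6A1, not named above, are accessory subunits of complexes I and IV, with log2 fold changes of -1.34 ± 0.19 and -1.34 ± 0.19 at RA4d.

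Not every subunit gene passed the test at RA4d. Of the 76 that could be tested, 64 were lower and 12 were not called, among them NDUFA4, NDUFB1, NDUFC2, NDUFS1, NDUFS8 and NDUFV3 in complex I, SDHC and SDHD in complex II, UQCRB in complex III, COX7A1 in complex IV and ATP5L in complex V. NDUFV3, an accessory subunit of the NADH-binding module, had 49.6, 45.7 and 48.1 CPM in RA4d cells and 45, 47.2 and 38.4 CPM in RA0h cells, the one value above 0 among the subunit genes of complex I (log2 fold change 0.13). The members that are not subunits were mostly not called. COX7A2L, which acts in the pairing of complexes III and IV, was at 97.9, 106 and 103 CPM in RA4d cells and 111, 96.2 and 105 CPM in RA0h cells (-0.03). ATP5S and ATP5SL, now named DMAC2L and DMAC2, had log2 fold changes of 0.01 and -0.11. The antisense RNAs NDUFA6-AS1 (-0.28), NDUFB2-AS1 (-0.54) and NDUFV2-AS1 (0.60) did not pass either, and without a stated strand their reads cannot be told apart from those of their sense partners. Of the 11 members with too few reads to test, ATP5E had 19 reads over the 12 libraries, ATP5L2 16, UQCRBP1 15, ATP5EP2 4 and both readthrough transcripts 0, beside the COX isoforms above. Reads that lay over more than 1 gene, 2.74 to 3.9% of a library, are in no gene's count. Nor are reads that aligned to more than 1 place, a further 4.5 to 5.7% of a library. Whether the few reads of the subunit gene ATP5E and of the readthrough transcripts stand for low levels was not tested.

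After 4 h of ATRA, edgeR called 0 of the 83 genes, where 2% of all genes were called higher and 4.23% lower. The median log2 fold change was -0.05, against 0 over all genes. At an unadjusted p under 0.05 there were 2 of 83, beside 3202 of 12671 over all genes. The 2 were NDUFA5 (0.42, adjusted p 0.0851) and NDUFB2-AS1 (-1.22, adjusted p 0.0722). DESeq2 called 2 and limma-voom 0. NDUFA5, a subunit of the matrix arm, had 64.9, 50.1 and 52.1 CPM in RA4h cells and 44.2, 42.1 and 38.1 CPM in RA0h cells, which did not overlap. The medians by complex were -0.08, 0.36, 0, -0.18 and 0.08 for complexes I to V. The complex II median was 0.14 without RA0h replicate 2, and the summed level of its genes was 419.9, 430.2 and 444 CPM in RA4h cells and 389.1, 223.2 and 394.3 CPM in RA0h cells.

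Between days 2 and 4, 11 of the 83 genes fell further and 1 rose, where 13.5% of all genes were called lower and 13.1% higher. The share of members called lower was thus near that of all genes. The median log2 fold change of the members was -0.30, against 0 over all genes. A value below 0 was found for 75 of the 83, against 6362 of 12671 over all genes. For 37 of the 83 every RA4d library lay below every RA2d library, against 3130 of 12671 over all genes. Of the 11, 0 were at least 2-fold lower, where 4.86% of all genes were called at least 2-fold lower. NDUFA4L2 had a log2 fold change of -1.54 on few reads and did not pass the test (adjusted p 0.166). The 11 were SDHA, ATP5G1 (-0.86, adjusted p 0.00776), ATP5A1, ATP5G3, COX5A, COX6A1, NDUFA8, NDUFB9, NDUFS5, NDUFS6 and UQCRFS1. SDHA and ATP5G1 kept their call with any single library left out, and the other 9 did not. Leaving out RA2d replicate 2 ended the call of all 9. The gene that rose was NDUFV2-AS1 (0.99 ± 0.34, adjusted p 0.0463), with 2.91, 2.88 and 4.36 CPM in RA4d cells and 1.2, 1.66 and 2.34 CPM in RA2d cells, a call that 8 of the 12 libraries, each left out alone, ended. This count of 12 was the most sensitive to the choice of fit. It was 5 with the replicate number as a block and 24 with the 6 libraries of these groups alone. Leaving out RA2d replicate 2 gave 2, and leaving out RA0h replicate 2 gave 23. Shares of all genes called under these fits are not given here.

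**Figure D4:**
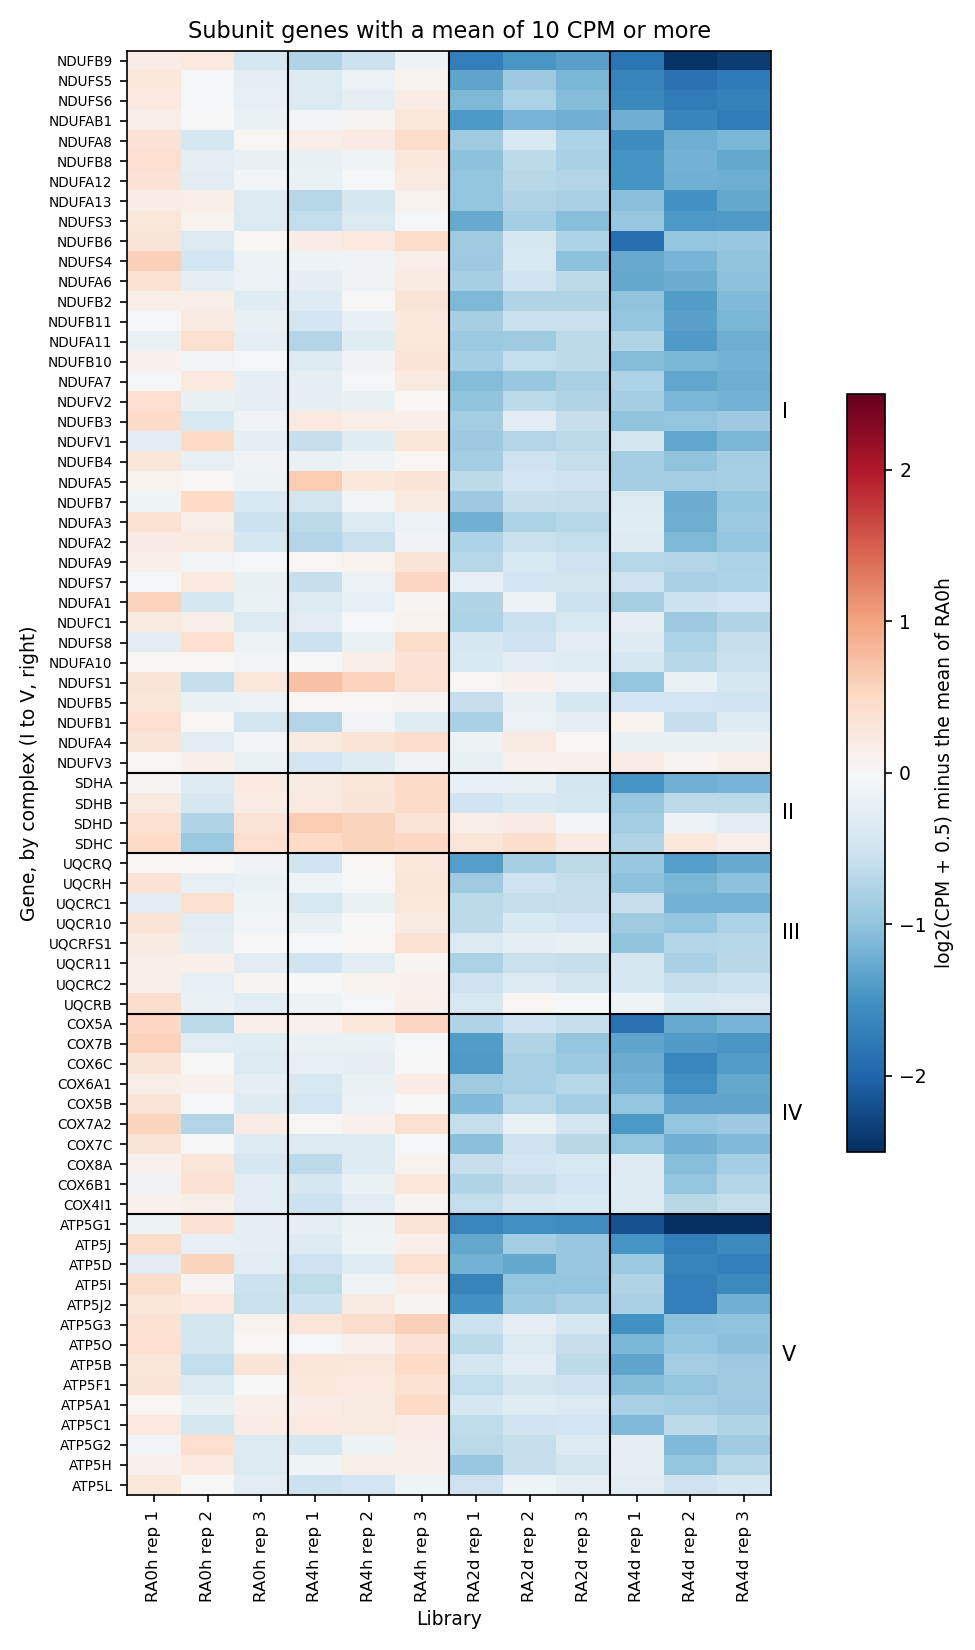
Log2(CPM + 0.5) of subunit genes with a mean of at least 10 CPM, minus the mean of its RA0h libraries, in the 12 libraries in time order and grouped by complex. The RA2d and RA4d columns are below the RA0h mean for most genes. RA0h replicate 2 is low at SDHC, SDHD, COX5A and ATP5B and high at ATP5D and NDUFV1.

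Genes that build or serve the respiratory chain but do not match the symbols were followed as lists. Of 47 tested assembly factors, proteins needed to put the complexes together, 28 fell and 1 rose at RA4d (median log2 fold change -0.80), where 29.7% of all genes were called lower and 28.1% higher. At RA2d 20 fell and 0 rose (-0.49), where 18.7% were called lower and 16.9% higher. The lists for single complexes are short, and those for complexes II and V, with 1 of 4 and 1 of 3 lower at RA4d, had shares near that of all genes. For complex I, 11 of 15 fell at RA4d. NDUFAF2, a chaperone of a late assembly intermediate, had 0.727, 0.991 and 1.48 CPM in RA4d cells and 21, 11.8 and 13.3 CPM in RA0h cells (log2 fold change -3.82 ± 0.32, adjusted p 4.24e-07). NDUFAF4, which acts early in assembly, had 7.48, 7.63 and 7.40 CPM at RA4d and 34.7, 34.8 and 31.5 CPM at RA0h (-2.16 ± 0.18, adjusted p 3.39e-07). Both were far outside the spread of their groups. NUBPL, which inserts iron-sulfur clusters, followed with -2.01. The one that fell for complex II was SDHAF3 (-1.64). For complex III, 5 of 6 fell, led by UQCC2, which stabilizes new cytochrome b, at 23.6, 18.1 and 16.4 CPM in RA4d cells and 90.6, 91.2 and 59.9 CPM in RA0h cells (-2.06 ± 0.22, adjusted p 3.78e-06). For complex IV, 10 of 19 fell and 1 rose, with LRPPRC, which stabilizes mitochondrial mRNAs, at 65.7, 81.3 and 76.3 CPM in RA4d cells and 308, 199 and 297 CPM in RA0h cells (-1.85 ± 0.19, adjusted p 2.3e-06). The one that rose, the copper-handling COX19 (0.36, adjusted p 0.0333), was not called with the offset for GC content and length or without any one of 5 libraries. The one that fell for complex V was TMEM70 (-0.92). At RA4h the copper chaperone COX11 was the one assembly factor called (0.70 ± 0.17, adjusted p 0.0309), and each of 6 single libraries, when left out, ended that call.

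Genes next to the chain in the same pathway are read here at RA4d against the 29.7% of all genes called lower and 28.1% called higher. Of 5 further parts of the chain, 4 fell, among them CYCS, the electron carrier cytochrome c (-1.80 ± 0.29, adjusted p 0.000159), and CYC1, the cytochrome c1 of complex III (-1.14 ± 0.19, adjusted p 0.000162). CYCS had 39.8, 73.6 and 74.1 CPM in RA4d cells and 286, 122 and 246 CPM in RA0h cells, with the same low libraries as ATP5B and COX5A, and kept its call with each single library left out. Of 14 genes of the tricarboxylic acid cycle, 7 fell and 0 rose (median -0.52), with the largest difference in fumarase FH, at 25.2, 26.8 and 27.3 CPM in RA4d cells against 83.5, 60.1 and 83.1 CPM in RA0h cells (-1.52 ± 0.15, adjusted p 1.88e-06). Of 12 genes of coenzyme Q synthesis, 6 fell, among them COQ3 (-1.90), and 1 rose, COQ10B (0.82), with a median of -0.47. Of 16 regulators of mitochondrial biogenesis, 4 fell and 4 rose (-0.03), both shares near those of all genes. The mitochondrial helicase C10orf2 had 9.56, 15.1 and 10.9 CPM at RA4d and 73.3, 46.9 and 79.7 CPM at RA0h (-2.49 ± 0.24, adjusted p 1.57e-06). PPRC1, a coactivator of the PGC-1 family, had 50.4, 42.6 and 48.7 CPM at RA4d and 126, 174 and 163 CPM at RA0h (-1.71 ± 0.16, adjusted p 1.37e-06), and the mitochondrial transcription factors TFB1M and TFB2M fell as well (-1.43 and -1.41). SP1, a general factor of GC-rich promoters, had 173, 239 and 230.3 CPM at RA4d and 103, 93.2 and 106 CPM at RA0h (1.09 ± 0.16, adjusted p 7.02e-05), and CREB1 (0.73) rose with it. GABPA (0.65) and ESRRA (0.63) were called higher too. GABPA lost the call without any one of 8 libraries, and ESRRA without RA0h replicate 1, RA0h replicate 3 or RA4d replicate 1. NRF1 (0.17) and YY1 (0.19), whose motifs were searched above, did not pass the test.

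**Figure D5:**
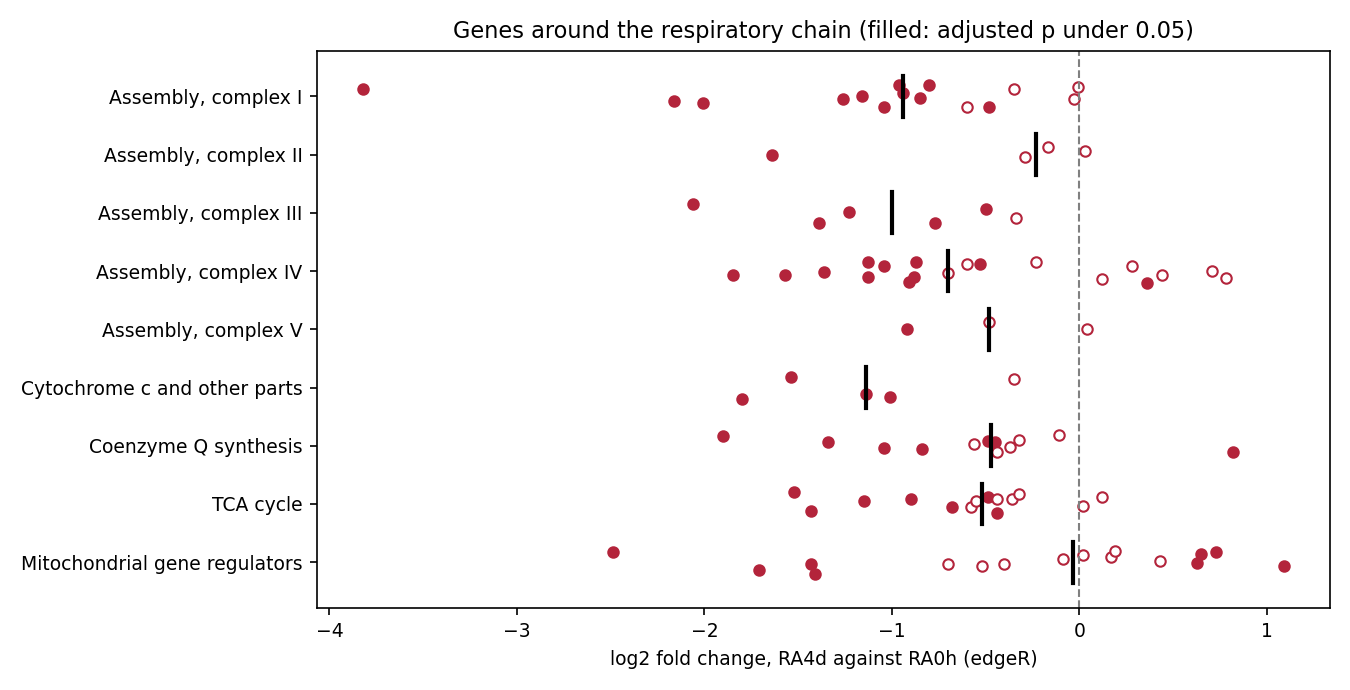
Log2 fold change at RA4d against RA0h of each tested gene of the lists, assembly factors by complex, further parts of the chain, coenzyme Q synthesis, the tricarboxylic acid cycle and regulators of biogenesis; filled points passed the test at an adjusted p under 0.05 and bars are medians. Assembly factors lie mostly below 0, down to NDUFAF2 at -3.82, while regulators lie on both sides of 0.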

How the data were processed

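RNA selection, library kit, strand and gene annotation were not given in the sources used here. Per the submitters' processing notes, FastQC, Trim Galore 0.6.7, HISAT2 2.1.0, HTSeq 1.99.2 and the genome build hg19 were used. The authors deposited raw read counts per gene, 1 file for each of the 12 libraries. Rows that name no gene, such as reads outside genes (13.97 to 28.15% of a library), were left out of totals and tests.

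CPM and log2 fold changes were computed here from the deposited counts with edgeR 4.0.16 in R 4.3.3, after filtering with filterByExpr, which left 12671 genes with 99.9% of gene reads, and TMM scaling. One quasi-likelihood fit over all 12 libraries, with 1 mean per group and 8 residual degrees of freedom, gave all comparisons. P-values were adjusted by Benjamini and Hochberg over all genes tested, and the threshold was 0.05. The fitted common biological variation was 20.8%. Values after ± are SE for log2 fold changes. Alternatives used RLE factors, no scaling, DESeq2 1.42.0, limma-voom 3.58.1, other filters and thresholds, a replicate block, an offset for GC content and length, and libraries left out. GC content and length came from GENCODE GRCh38 transcripts matched by symbol, 92.9% of genes and all 94 members. Python 3.11.15, pandas 2.3.3 and matplotlib 3.10.9 made tables and plots. The fitting code was tested on simulated data.

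The genes named were drawn, per complex, from the 3 with the largest absolute log2 fold change in RA2d and RA4d against RA0h. Those 3 were taken among genes called at a mean of at least 10 CPM. Others were drawn from the central subunits, the paralogous isoforms, members called against the majority, and the top 3 called genes of each list. Not every gene under these rules is named. NDUFA5, UQCRB, NDUFV3, NDUFA4, COX7A2L, COX6B1, COX8A, the other members listed as not called, and COX11, COX19 and COQ10B were named after their values were seen. Members and lists were chosen with earlier results of these data known. Replicate libraries of a group differed by more than sampling noise, with a chi-square per degree of freedom of 3.47 to 98.02. Single values of some genes are not reported here, though the genes stay in all counts and medians.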

Additional observations from a re-analysis of the deposited data

How the results depend on the processing

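The counts of members called at RA4d against RA0h (65), RA2d against RA0h (49) and RA2d against RA4h (46) were within 1.5 times the reported count in 25, 22 and 23 of 26 alternatives, and the median log2 fold change of the members ranged from -1.04 to -0.73 at RA4d and from -0.70 to -0.45 at RA2d, both against RA0h. Requiring at least 2-fold left 39 at RA4d and 13 at RA2d against RA0h, 8 at RA2d against RA4h and 0 at RA4d against RA2d, by construction of a stricter threshold. An adjusted p under 0.01 left 27 at RA2d against RA0h, 26 at RA2d against RA4h and 2 at RA4d against RA2d. With each library left out in turn, the counts ranged from 55 to 68 at RA4d against RA0h, from 24 (without RA2d replicate 1) to 54 at RA2d against RA0h (31 without RA0h replicate 1), from 27 (without RA2d replicate 1) to 55 at RA2d against RA4h, from 0 to 1 at RA4h against RA0h and from 2 to 23 at RA4d against RA2d. Calls kept with every single library left out numbered 53 of 65 at RA4d, 24 of 49 at RA2d, 25 of 46 at RA2d against RA4h and 2 of 12 at RA4d against RA2d. The count of 0 at RA4h was 2 with DESeq2, 1 with no filter, 5 (all higher) with the GC and length offset, and 6 without RA0h replicate 2, RA4h replicate 3 and RA4d replicate 1. The count of 12 at RA4d against RA2d was 24 with 6 libraries and 30 with the GC and length offset. It was 29 or 38 without RA0h replicate 2, RA4d replicate 1 and RA4h replicate 1 or 3. No share of all genes called is given for the alternatives in this section. A higher count there need not be particular to the members. The sign turned for ATP5D (0.58) and NDUFS8 (0.43) at RA4h with the GC and length offset, and for SDHD (-0.27) at RA2d against RA0h without RA0h replicate 2, RA4h replicate 3 and RA4d replicate 1. The cause was not tested.

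The labels do not say whether the replicate numbers pair the samples. Deviations of same-numbered libraries from their group means correlated with a median of -0.238 (18 pairs, -0.659 to 0.455). Those of other libraries correlated with a median of 0.143 (36 pairs). Deviations from a mean of 3 libraries depend on one another, so these values cannot decide whether the samples were paired. With a replicate block the counts were 62 at RA4d, 35 at RA2d and 0 at RA4h against RA0h, 43 at RA2d against RA4h and 5 at RA4d against RA2d.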
